A study of Mus musculus with 10 samples.

Results

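The receptors described here sit on the surface of fat cells and their neighbours and set how fast stored triglyceride is broken down. They were taken from a list of 9 receptor genes, of which 4 were measured among the 19659 genes of the arrays: Npr1 and Npr3, 2 receptors of natriuretic peptides, Hcar1, the receptor of lactate, and Adra1b, an alpha 1 adrenoceptor. Adrb1, Adrb3, Adra1a, Adra2a and Adora1, the other 5 genes of the list, were not analysed here. Each of the 4 measured genes was read by 1 probe set with a value on all arrays.

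Lipolysis is switched on by receptors that raise cyclic AMP or cyclic GMP in the adipocyte and is held back by receptors coupled to inhibitory G proteins. Npr1 is a guanylyl cyclase that makes cyclic GMP when it binds atrial or B-type natriuretic peptide, while Npr3 has no cyclase domain and mainly takes the same peptides up for degradation, so that the pair is often read as a signalling and a clearance receptor. Hcar1 couples to an inhibitory G protein and restrains lipolysis when lactate is high, and Adra1b couples noradrenaline to phospholipase C and calcium instead of cyclic AMP.

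The samples were inguinal-femoral subcutaneous white fat of 10 untreated, chow-fed female F2 mice aged 14 weeks, with 1 array per animal. The 5 FF mice were homozygous for the Fat-line allele at the obesity locus Fob3a, and the 5 VV mice were homozygous there for the allele of the V line, which the labels also call the lean-line allele. Both groups descend from a cross of the Fat line with the congenic V line, which had been backcrossed repeatedly to the Fat line, so they share most of the Fat-line background, and the labels do not give the ends of the exchanged segment. Values are log2 intensities normalised between arrays, all differences are FF minus VV on that scale, and an intensity orders mice for 1 gene and does not rank one gene against another.

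The tissue label was checked against marker genes. The mean of 10 adipocyte genes lay between 12.80 and 12.90 in FF mice and between 12.77 and 12.92 in VV mice, and Adipoq, the adipocyte hormone adiponectin, averaged 13.34 ± 0.07 for FF and 13.38 ± 0.07 for VV (SD over 5 mice per genotype). VV replicate 1 stood apart, with a mean of 11.97 over 10 liver genes against 8.28 to 9.45 in the other mice, and FF replicate 1 had a mean of 9.13 over 10 skeletal muscle genes against 6.79 to 7.51 in the others. The mean over 12 thermogenic adipocyte genes did not overlap between the groups, at 8.48 to 9.32 in FF and 7.11 to 7.65 in VV. Taken singly, 7 of the 12 genes were free of overlap with FF higher, as were 3.36% of all genes. The mean over 13 leukocyte genes did not overlap either, at 8.76 to 9.09 in FF and 9.22 to 9.65 in VV. Of these 13 genes, 3 were free of overlap with FF lower, as were 1.34% of all genes. In whole tissue, fewer cells of a type and less RNA per cell cannot be told apart.

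The sequences just upstream of the annotated starts of Npr3 and Npr1 are shown because the 2 receptors bind the same peptides. Each is 250 bases of the RefSeq promoter table on GRCm38.p6, from the minus strand and in the direction of transcription, ending at the base before the start. The Npr3 window is chr15:11907372-11907621 and the Npr1 window is chr3:90465867-90466116. Capitals mark matches, on either strand, to any of 4 motifs. The cyclic AMP response element core was searched as TGACG. The GC box was searched as GGGCGG. The TATA box was searched as TATAAA, and the remaining motif was the CCAAT box.
Npr3: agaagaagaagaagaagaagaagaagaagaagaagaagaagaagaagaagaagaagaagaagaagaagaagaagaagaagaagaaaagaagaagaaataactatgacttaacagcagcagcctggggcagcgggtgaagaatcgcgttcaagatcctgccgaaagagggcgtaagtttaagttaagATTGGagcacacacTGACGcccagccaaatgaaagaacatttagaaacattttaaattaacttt
Npr1: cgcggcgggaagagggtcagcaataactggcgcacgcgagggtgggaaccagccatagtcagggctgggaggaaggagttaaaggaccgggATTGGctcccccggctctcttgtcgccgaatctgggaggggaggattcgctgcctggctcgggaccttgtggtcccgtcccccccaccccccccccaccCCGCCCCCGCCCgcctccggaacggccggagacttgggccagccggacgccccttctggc
The Npr3 window opens with 28 copies of a purine triplet, 84 bases in all, and has a GC content of 38.8%. The Npr1 window has a GC content of 70.4%, against a median of 52.4% over 32851 such windows. Npr3 holds 1 response element core, which 17.8% of all windows hold, and 1 CCAAT box, which 33.8% hold. Npr1 holds 2 adjoining GC boxes, a motif that 32.7% of windows hold, and also 1 CCAAT box. The TATA box, found in 12.4% of windows, was in neither. The annotated span of both genes reaches farther upstream than these starts, and a match is a description of the letters and not of a bound site. The reference is not the sequence of the Fat or V line.

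None of the 4 receptors passed an adjusted p of 0.05 over all genes in limma, where 0.753% of the 19659 genes did, 0.621% higher and 0.132% lower in FF. Without adjustment, 1 of the 4, Npr3, had a p under 0.05, as did 16.4% of all genes, 10.2% with FF higher and 6.18% with FF lower. Npr3, Npr1 and Adra1b had negative differences and Hcar1 a positive one, and the median over the 4 was -0.05 against 0.00081 over all genes.

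Npr3, the clearance receptor, gave the clearest separation of the genotypes. Its log2 intensity was 12.79, 12.83, 12.69, 12.74 and 12.89 in FF mice, against 12.90, 13.05, 12.97, 13.01 and 12.95 in VV mice. Every FF mouse lay below every VV mouse, though the highest FF mouse, replicate 5 at 12.892, and the lowest VV mouse, replicate 1 at 12.903, almost touched. FF mice averaged 12.79 ± 0.08 and VV mice 12.98 ± 0.06 (SD over 5 mice per genotype), differing by -0.19 (SE 0.05). Npr3 in FF was 0.877 times the VV level, with a 95% interval from 0.813 to 0.946. Over all genes the limma adjusted p was 0.0910, short of the threshold, and Npr3 stood at rank 604 by p. The groups did not overlap with FF lower for 1.34% of all genes, with FF higher for 3.36%, and in either direction for 4.7%. The adjusted p stayed between 0.0618 and 0.221 over 21 other settings, and the difference kept its sign in each. The separation came with the lower leukocyte and higher thermogenic gene levels in FF given above, and their part in it was not tested. The mean over the adipocyte genes overlapped between the groups.

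**Figure D1:**
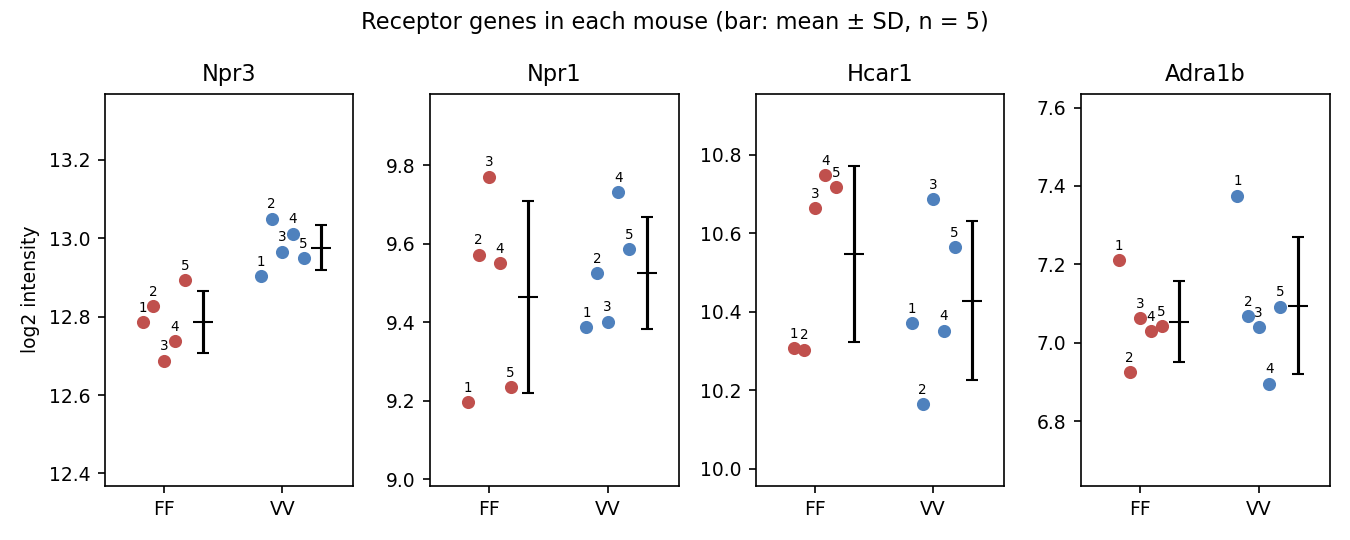
Log2 intensity (y axis, each panel spanning 1 log2 unit) of Npr3, Npr1, Hcar1 and Adra1b in each mouse, FF left of VV, with replicate numbers beside the points and bars for the mean and SD of 5 mice. The Npr3 points of FF, up to 12.892, all lie below those of VV, from 12.903, while the points of both groups mix in the other 3 panels.

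Npr1, the signalling receptor of the same peptides, did not separate the genotypes. It was 9.20, 9.57, 9.77, 9.55 and 9.23 in FF mice, against 9.39, 9.52, 9.40, 9.73 and 9.59 in VV mice. FF held both the 2 lowest mice, replicates 1 and 5, and the highest, replicate 3. FF mice averaged 9.46 ± 0.24 and VV mice 9.53 ± 0.14 (SD over 5 mice per genotype). The difference of -0.06 (standard error 0.11) corresponds to 0.958 times the VV level, with a 95% interval from 0.807 to 1.14 that spans no change (limma adjusted p = 0.837). Without FF replicate 1, the mouse with the most muscle RNA, the difference was 0.0061, so its sign rests on that mouse.

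Taken within each array, Npr1 minus Npr3 was -3.59, -3.25, -2.92, -3.19 and -3.66 in FF mice, against -3.52, -3.53, -3.56, -3.28 and -3.36 in VV mice. The zero of this scale has no meaning because the probe sets differ, and only the shift between mice can be read. FF mice averaged -3.32 ± 0.31 and VV mice -3.45 ± 0.12 (SD over 5 mice per genotype), a shift of 0.13 that is smaller than the spread among FF mice. The groups overlapped, with FF replicates 1 and 5 below all VV mice and FF replicates 2, 3 and 4 above all of them. The shift was 0.03 without FF replicate 3 and 0.21 without FF replicate 5. No test was made of this contrast.

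Within the groups, the Npr1 level went with the mean level of a list of progenitor and fibroblast genes. The mean of 9 such genes was 10.43, 10.69, 10.89, 10.63 and 10.48 in FF mice, against 10.59, 10.80, 10.67, 10.86 and 10.88 in VV mice. The lowest mice for both measures were FF replicates 1 and 5, and FF replicate 3 was the highest for both. Not every gene of the list did so: Dlk1 was 8.76 in FF replicate 1 and 8.09 in FF replicate 3, the reverse of Npr1. After each group was centred on its mean, Pearson's r between Npr1 and the mean of this list was 0.94 over the 10 mice. It was 0.78 with 10 smooth muscle and pericyte genes and 0.58 with 10 endothelial genes. With 10 adipocyte genes it was -0.57, and with 10 skeletal muscle genes -0.70. These coefficients are with list means, and Cspg4 of the smooth muscle list also ran the other way, at 10.09 in FF replicate 1 and 9.07 in FF replicate 3. They describe 10 mice whose arrays share the same normalisation. With single mice left out, the coefficient with the progenitor list stayed between 0.91 and 0.96. For Npr3 the coefficients with the 10 marker lists lay between -0.30 and 0.28 over all mice, and between -0.63 and 0.77 with single mice left out.

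**Figure D2:**
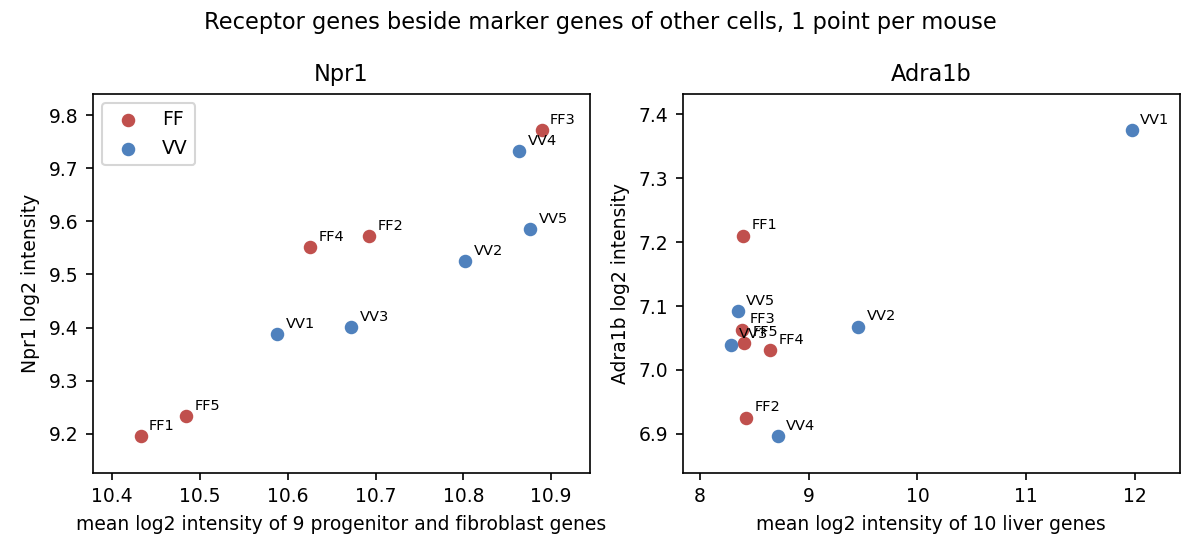
Left, Npr1 log2 intensity (y axis) against the mean log2 intensity of 9 progenitor and fibroblast genes (x axis); right, Adra1b against the mean of 10 liver genes; 1 point per mouse, FF in red and VV in blue. Npr1 climbs with the mean of the progenitor genes across both genotypes. The highest Adra1b point is VV replicate 1, which stands alone at a liver mean of 11.97 and without which r is -0.036.

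Hcar1, the lactate receptor, varied among mice of both genotypes. Its values were 10.31, 10.30, 10.66, 10.75 and 10.72 in FF mice, against 10.37, 10.16, 10.69, 10.35 and 10.56 in VV mice. FF replicates 1 and 2 lay at the level of the lower VV mice, and VV replicate 3 at that of the upper FF mice. FF mice averaged 10.55 ± 0.22 and VV mice 10.43 ± 0.20 (SD over 5 mice per genotype), differing by 0.12 (SE 0.12). FF was 1.09-fold of VV, with a 95% interval from 0.905 to 1.31 (limma adjusted p = 0.667). Leaving out single mice moved the difference between 0.05 and 0.19, so its size depends on which mice are kept. The coefficients of Hcar1 with the 10 marker lists lay between -0.43 and 0.40 over all mice, and between -0.61 and 0.86 with single mice left out.

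Adra1b, the alpha 1B adrenoceptor, had 7.21, 6.93, 7.06, 7.03 and 7.04 in FF mice, against 7.38, 7.07, 7.04, 6.90 and 7.09 in VV mice. The groups overlapped fully, and the highest mouse of each was its replicate 1, the VV animal with the most liver RNA and the FF animal with the most muscle RNA. Adra1b is known to be strongly expressed in rodent liver. FF mice averaged 7.05 ± 0.10 and VV mice 7.09 ± 0.17 (SD over 5 mice per genotype), a difference of -0.04 (standard error 0.08; 0.973 times the VV level, 95% interval 0.856 to 1.11; limma adjusted p = 0.860). The sign turned to 0.03 without VV replicate 1 and to 0.0080 after quantile normalisation. With each group centred on its mean, r over the 10 mice was 0.73 with the liver genes and 0.60 with the skeletal muscle genes. It was -0.78 with the smooth muscle genes, -0.76 with the endothelial genes and -0.56 with the progenitor genes. The coefficient with the liver genes rests on VV replicate 1: over the other 9 mice it was -0.036. Without that mouse r was 0.64 with the skeletal muscle genes and -0.59 with the smooth muscle genes. It was then -0.52 with the endothelial genes and -0.39 with the progenitor genes. The part of RNA from any of these other cells in the Adra1b level was not tested.

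For each receptor the 3 genes whose values followed it most closely within the groups were found by Pearson's r over the 10 mice, with no test. Npr1 was followed by Serinc5 (r = 0.981), a serine incorporator family member, Lama3 (r = 0.977), a laminin chain, and Evc (r = 0.977), a gene of primary cilia. Hcar1 was followed by Retnla (r = 0.947), a secreted resistin-like protein, Cdh26 (r = 0.928), a cadherin, and Cntn4 (r = 0.907), a contactin. Adra1b was followed by Vnn3 (r = 0.953), a vanin, Slc10a2 (r = 0.936), the bile acid transporter of ileum, and Rgs16 (r = 0.935), which shortens G protein signals. Without VV replicate 1 these 3 coefficients were 0.881 for Vnn3, 0.835 for Slc10a2 and 0.828 for Rgs16. Npr3 was followed by Ptbp1 (r = 0.945), a splicing regulator, Kdm5d (r = 0.944) and Tmem237 (r = 0.944). Kdm5d is a Y-linked gene, and in these female mice its probe set read 4.80 in FF and 4.86 in VV. No call was made for any of these 12 genes, the smallest limma adjusted p being 0.379 for Vnn3.

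Other receptors that act on lipolysis or cyclic AMP in fat were then read from a list of 20, of which 14 were measured. In this list 1 gene fell, none rose and 13 did not pass, with a median difference of 0.02. Over all genes 0.132% fell and 0.621% rose. The gene that fell was Ptger4, a prostaglandin E2 receptor that raises cyclic AMP and that leukocytes also carry. Its level was 8.28, 8.41, 8.40, 8.28 and 8.25 in FF mice, against 8.59, 8.77, 8.63, 8.81 and 8.58 in VV mice, without overlap. FF mice averaged 8.33 ± 0.07 and VV mice 8.68 ± 0.11 (SD over 5 mice per genotype), differing by -0.35 (SE 0.06), or 0.784 times the VV level with a 95% interval from 0.716 to 0.858 (limma adjusted p = 0.0352). This call was lost without any 1 of 8 of the 10 mice, all but FF replicate 3 and VV replicate 1, with an adjusted p of up to 0.0927, and the unmoderated test did not make it either (adjusted p = 0.0796). All 13 measured leukocyte genes had negative differences, as had 9765 of the 19659 genes tested, and the leukocyte median was -0.41. Ptprc, the leukocyte antigen CD45, was 8.90 ± 0.26 in FF and 9.58 ± 0.19 in VV (limma adjusted p = 0.0422). The part of leukocyte number in the Ptger4 level was not tested.

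Mc5r, the melanocortin 5 receptor, which raises cyclic AMP in mouse adipocytes, had the largest difference of the 14 in size without passing the test. It was 10.11, 8.87, 9.54, 9.11 and 8.33 in FF mice, against 8.95, 7.78, 8.24, 7.61 and 8.03 in VV mice. VV replicate 1 lay above FF replicates 2 and 5. FF minus VV came to 1.07 (SE 0.33), or 2.10-fold with a 95% interval from 1.27 to 3.46 (limma adjusted p = 0.135). Adra2c, an alpha 2 adrenoceptor coupled to an inhibitory G protein and named here after its value was seen, differed by -0.0057 (limma adjusted p = 0.983).

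Among genes downstream of the receptors and genes that supply, process or clear their ligands, none of those measured passed the threshold. Over all genes 0.753% passed it, so a count of 0 in lists of this size does not set them apart. This holds for 24 genes of the cyclic AMP relay, 21 genes that end cyclic AMP or receptor signals and 15 genes of natriuretic peptides and cyclic GMP. It also holds for 12 genes of the alpha 1 relay and 10 of lipases, lipid droplet proteins and related proteins. The same goes for 10 genes of catecholamine supply and 13 of adenosine and lactate handling. The medians of these lists lay between -0.06 and 0.08. Unadjusted p values under 0.05 were found for 8, 5, 1, 5, 5, 1 and 4 of them in the same order, and for 16.4% of all genes.

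**Figure D3:**
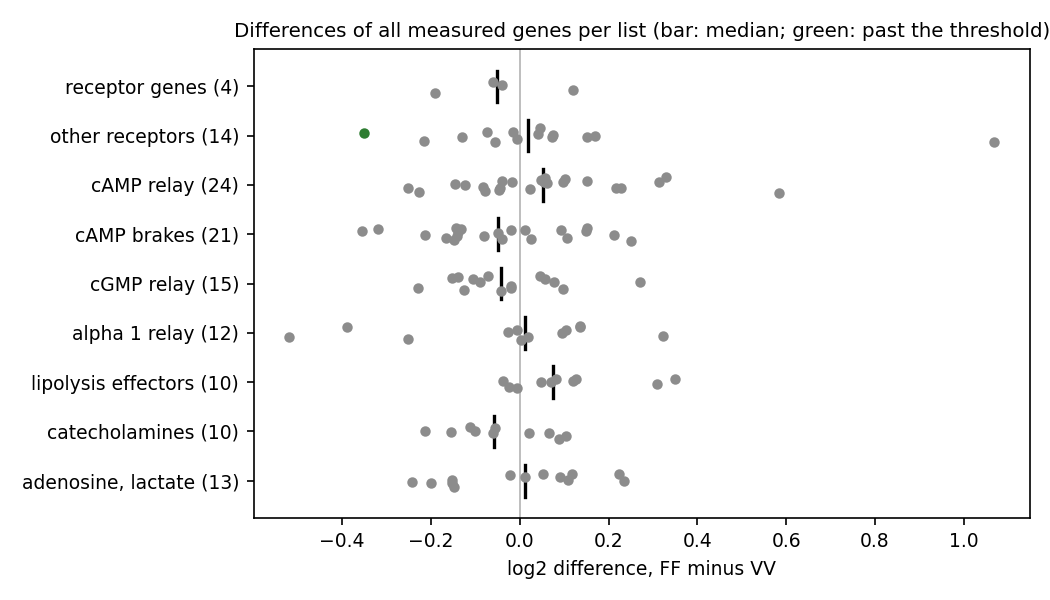
Log2 difference, FF minus VV (x axis), of every measured gene of the receptor list and the 8 pathway lists (rows, with the number of genes), with a black bar at each median and green for the gene past the threshold. The medians lie between -0.06 and 0.08, Ptger4 is the green point at -0.35, and the point at 1.07 is Mc5r.

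In the cyclic AMP relay, the smallest p values belonged to Crtc2 and Crtc3, coactivators that CREB recruits when cyclic AMP is high. Crtc2 was 10.14, 10.32, 10.40, 10.04 and 10.32 in FF mice, against 9.90, 10.02, 9.94, 9.90 and 9.90 in VV mice, and the groups did not overlap. It differed by 0.31 ± 0.07 (SE; limma adjusted p = 0.0610), and Crtc3 by 0.23 ± 0.06 (adjusted p = 0.0999). Among the genes that end the signal, the phosphodiesterase Pde4b differed by -0.35 ± 0.08 (adjusted p = 0.0591), without overlap of the groups. Pde7b, another cyclic AMP phosphodiesterase, differed by -0.32 ± 0.11 (adjusted p = 0.191). The negative differences of Pde4b and Pde7b came with lower leukocyte genes in FF, whose part was not tested.

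In the natriuretic branch, Furin, a protease that processes many prohormones, had the smallest p. It was 10.23, 10.12, 9.86, 10.17 and 9.98 in FF mice, against 9.82, 9.66, 9.81, 9.85 and 9.85 in VV mice, a difference of 0.27 ± 0.07 (SE; limma adjusted p = 0.0964) without overlap. Corin, the protease that activates the atrial peptide in heart, differed by -0.14 ± 0.07 (adjusted p = 0.342). The peptide genes Nppa, Nppb and Nppc, named as ligands of natriuretic peptide receptors, had small differences. These were -0.02 for Nppa, -0.07 for Nppb and 0.06 for Nppc, with limma adjusted p between 0.618 and 0.892. Their group means, from 6.44 to 6.70, lay below the median of every array, 7.15 to 7.21. Whether these peptide genes were expressed in this fat was not tested. Npr2, the receptor of the C-type peptide, differed by 0.15 (adjusted p = 0.268). These last 4 genes were named after their values were seen.

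In the alpha 1 relay, Prkcb and Plcb2, a protein kinase C and a phospholipase C that are also abundant in leukocytes, differed by -0.52 ± 0.13 and -0.39 ± 0.10 (SE; limma adjusted p = 0.0875 and 0.0902). Prkcb did not overlap between the groups, while Plcb2 did. As with Ptger4, these negative differences came with lower leukocyte genes in FF, whose part was not tested.

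The list of lipases and lipid droplet proteins also held Fabp4, Aqp7 and G0s2. Of its 10 genes, 5 had an unadjusted p under 0.05, all with a positive difference, as had 10.2% of all genes. Fabp4, Aqp7 and G0s2 were not among these 5. Abhd6, a monoacylglycerol lipase, was 9.18, 9.15, 8.97, 9.15 and 9.08 in FF mice, against 8.9998, 8.71, 8.72, 8.56 and 8.78 in VV mice. FF replicate 3 lay just below VV replicate 1, and the difference was 0.35 ± 0.08 (SE; limma adjusted p = 0.0625). Abhd5, the coactivator of adipose triglyceride lipase, differed by 0.31 ± 0.10 (adjusted p = 0.139) without overlap, at 11.062 to 11.41 in FF and 10.62 to 11.059 in VV. The lipases Lipe and Pnpla2, named after their values were seen, differed by 0.12 and 0.13 (adjusted p = 0.152 and 0.234).

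In the supply of catecholamines, Maoa, the monoamine oxidase that breaks noradrenaline down, differed by -0.15 ± 0.05 (SE; limma adjusted p = 0.185) and Pnmt, which makes adrenaline, by -0.10 ± 0.05 (adjusted p = 0.349). Th, the first enzyme of catecholamine synthesis, was 6.52 ± 0.11 in FF and 6.58 ± 0.10 in VV (limma adjusted p = 0.711). Both means lay below the median of every array, 7.15 to 7.21, and nerve supply was not measured. For lactate and adenosine, Ldhb, a lactate dehydrogenase subunit, differed by 0.22 ± 0.09 (adjusted p = 0.222) and Entpd1, an ectoenzyme upstream of adenosine, by -0.24 ± 0.10 (adjusted p = 0.234). None of these 5 genes passed the threshold. The part of leukocyte number in the Entpd1 level was not tested.

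**Figure D4:**
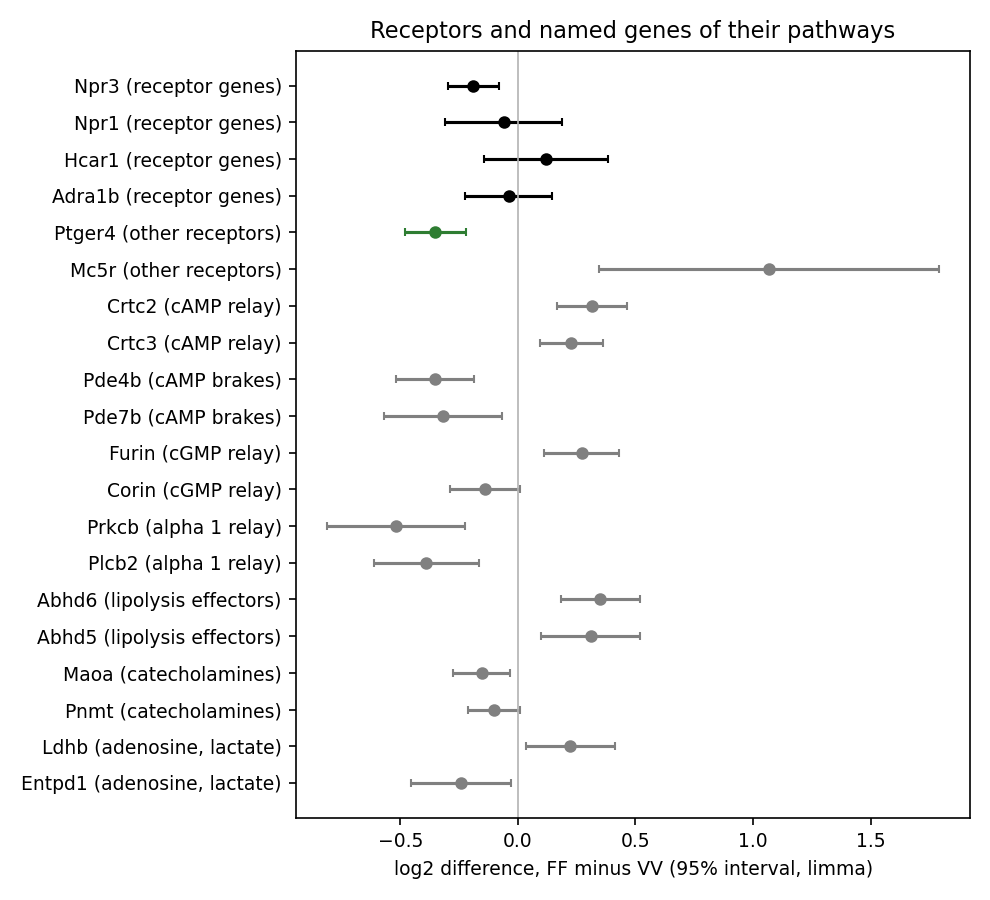
Log2 difference, FF minus VV (x axis), with 95% intervals from limma for the 4 receptors (black) and the 2 genes with the smallest p of each pathway list (grey; green where past the threshold). The interval of Npr3 lies below 0, those of Npr1, Hcar1 and Adra1b span 0, and Mc5r has the widest interval, from 0.35 to 1.79.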

How the data were processed

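The authors deposited log2 intensities per probe set, normalised with RMA per the submitters' processing notes; neither a version of it nor a genome build is given in the sources used here. Of 35557 probe sets, 25689 had a value on all 10 arrays and 9868 on none; 20777 of the former named 1 gene, and the probe set with the highest mean stood for each of 19659 genes. Symbols and chromosomes came from a GRCm38.p6 gene table (20699 probe sets matched). Of the 9 listed receptors, 5 were not analysed here, so the planned Adrb3 minus Adra2a contrast was not computed.

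FF and VV were compared in R 4.3.3 with limma 3.58.1 (lmFit, eBayes, two-sided, no covariates, Benjamini-Hochberg over all genes, threshold 0.05, no filter on low values), tested on simulated data. The number of arrays limits the precision. The group means of Adra1b, Adra2c, Corin, Th, Pnmt, Nppa, Nppb and Nppc lay below the median of every array, 7.15 to 7.21. Whether these genes were expressed in the fat was not tested, so their small differences do not show an unchanged expression. Replicate numbers were not used to pair the mice in the main fit: 1 of 5 same-numbered pairs had a correlation of deviations over 0.1. That check cannot exclude a pairing that the labels do not give. Members and lists were chosen with earlier results of these data known. Named were the 4 receptors, every call and the 2 smallest p values of each pathway list, the 3 genes most like each receptor and defining markers; genes marked so in the text were added after their values were seen. Figures used matplotlib 3.10.9 in Python 3.11.15.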

Additional observations from a re-analysis of the deposited data

Results flagged for a closer look

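Of 40 groups of 5 mice checked for a single mouse far from the rest (4 receptors and 16 pathway genes, in each genotype), 3 had one, where chance alone gives about 1 in 20. Pde7b was 9.12 in FF replicate 1, the mouse with the most muscle RNA, while the other FF mice had 9.28 to 9.33. Furin was 9.66 in VV replicate 2, while the other VV mice had 9.81 to 9.85. Pnmt was 5.997 in VV replicate 4, while the other VV mice had 5.78 to 5.82. None of the 4 receptors had such a mouse in either genotype.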

How the results depend on the processing

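No receptor passed an adjusted p of 0.05 in limma under any of 21 other settings. At an adjusted p of 0.10 the counts became 1 receptor lower (Npr3), 2 genes of the cyclic AMP relay higher, 1 gene that ends cyclic AMP signals lower, 1 of the cyclic GMP branch higher, 2 of the alpha 1 relay lower and 1 lipase higher, each from 0. Npr3 differed by -0.22 to -0.17 when single mice were left out (adjusted p = 0.0890 to 0.195), Hcar1 by 0.05 to 0.19, Npr1 by -0.14 to 0.0061, Adra1b by -0.089 to 0.030, and the shift of Npr1 minus Npr3 was 0.03 to 0.21. Npr1 changed sign without FF replicate 1 (0.0061), and Adra1b without VV replicate 1 (0.030) and after quantile normalisation (0.0080). With the replicate number as a block, Npr3 had an adjusted p of 0.221 and the count of other receptors lower became 0 from 1; it was also 0 in the unmoderated test and without both first mice, and 0 to 1 when single mice were left out. The count of the cyclic AMP relay higher was 1 with array weights, after centring arrays on their median and without genes below the median intensity, and 0 to 1 without single mice. The count of lipases higher was 1 in those same 3 settings and 0 to 1 without single mice, that of the cyclic GMP branch higher was 1 with array weights and 0 to 1 without single mice, and that of genes ending cyclic AMP signals lower was 1 with array weights and in both intensity filters. Adra1b was not tested without genes below the median intensity. Over all genes, 122 were higher and 26 lower, against 5 and 0 with the block, 74 and 21 after quantile normalisation, 295 and 43 after median centring, and 531 and 173 at an adjusted p of 0.10. With 1 mouse left out, 7 to 313 were higher and 0 to 66 lower: 7 and 0 without VV replicate 2, 10 and 2 without FF replicate 2, 15 and 2 without FF replicate 1, 16 and 2 without VV replicate 4, 16 and 1 without VV replicate 5, 19 and 2 without FF replicate 5, 50 and 9 without FF replicate 4, 67 and 7 without VV replicate 3, 124 and 39 without VV replicate 1, and 313 and 66 without FF replicate 3. The correlations without single mice were added after seeing the data. The cause of these changes was not tested.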

Other observations

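Npr3 and Ptger4 both lie on chromosome 15, as does Deptor, the gene of the series title; the 3 were set side by side after their values were seen. In the order of the 745 measured genes of that chromosome in the reference, Ptger4 is number 14, Npr3 number 50 and Deptor number 170. Deptor, an inhibitor of the mTOR kinase, was 0.55 higher in FF (10.88 in FF and 10.34 in VV; limma adjusted p = 0.00553).

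The measured neighbours of Npr3 did not share its lack of overlap, though Adamts12 had a difference of the same size. Both differed by -0.19, with an SE of 0.09 for Adamts12 and 0.05 for Npr3. On one side, Tars, a tRNA synthetase, differed by 0.08, Adamts12, a secreted protease, by -0.19 and Rxfp3, a relaxin family receptor, by 0.03. On the other, Sub1, a transcription coactivator, differed by -0.03, Zfr, a zinc finger RNA-binding protein, by 0.04 and Mtmr12, a myotubularin family member, by -0.10. The groups overlapped for each of these 6 genes, with limma adjusted p from 0.347 to 0.864. The groups did not overlap with FF lower for 13 of the 745 genes of chromosome 15, or 1.74%, against 1.33% of 18898 genes on other chromosomes; no test was made of this difference.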
